A study of Homo sapiens with 4 samples.

Results

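A group of 8 genes that draw monocytes to a tissue and hold them there was followed on 4 arrays of UM-UC-3 cells, a long-used line from human bladder cancer. The genes are CCL2, CCL5, CCL7, CCL20, CSF1, CX3CL1, VCAM1 and ICAM1. They were found by taking every probe set that the platform annotation gives to exactly 1 gene with one of these symbols. This gave 16 probe sets of 54613 without controls, for 8 genes of 19775 named on the array, and CCL2, CCL7, CCL20 and VCAM1 have 1 probe set each. One line, GFP-RhoGDI2, had been stably transfected with a GFP-tagged RhoGDI2, the product of ARHGDIB, and the control line, GFP, with GFP alone, together with pBABE PURO for selection. Both lines were sorted by fluorescence and harvested in log phase, and each gave 2 arrays, A and B, which the labels pair by time of preparation. The labels do not say whether either line is a single clone, so what arose when a line was made and what the introduced gene did cannot be told apart. For the GFP-RhoGDI2 samples the labels' description speaks of the control transfection, and groups were taken from the titles, with which source, genotype and growth fields match. The series set out to find genes regulated by RhoGDI2, a metastasis suppressor in its title.

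Monocytes leave the blood in steps that these genes serve. CCL2 and CCL7 are chemokines that attract monocytes through the receptor CCR2, CCL5 acts through CCR1 among other receptors, and CCL20 attracts cells that carry CCR6. CSF1 is the growth factor on which monocytes and macrophages depend for survival and differentiation, and CX3CL1 is a chemokine made as a membrane protein that both tethers and attracts cells with CX3CR1. VCAM1 and ICAM1 are surface proteins to which leukocyte integrins bind, best known from inflamed endothelium and also made by some tumour cells.

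Values are log2 RMA expression as deposited, 1 per probe set and array, and a difference is GFP-RhoGDI2 minus GFP on that log2 scale. The array medians lay between 4.62 and 4.65. Probe sets were tested when their mean over the 4 arrays reached 4.64, the median of all such means, called the filter level here, and a call is an adjusted p under 0.05 in limma with preparation as a block. No detection calls were used, so a value under the filter level is not shown to be above background. The introduced gene itself read 11.94 and 11.58 in GFP-RhoGDI2 cells A and B, against 6.51 and 6.27 in GFP cells (the brightest of its 3 probe sets, ARHGDIB). The others differed less, by 0.94 (limma adjusted p = 0.00794) and -0.017 (adjusted p = 0.953), and which transcript parts they read was not analysed here. Most markers of other cells lay under the filter level. Of 8 matched monocyte and macrophage markers 7 lay under the filter level, CD14 among them, and their summed linear level was 108 to 111 in GFP-RhoGDI2 cells and 108 to 114 in GFP cells. Of 8 endothelial markers 6 lay under it, CDH5 and VWF among them, with a summed level of 149 to 152 in GFP-RhoGDI2 cells and 151 to 167 in GFP cells. Of 6 matched lymphoid and blood markers 5 lay under it, PTPRC among them, with sums of 106 to 109 in GFP-RhoGDI2 cells and 106 to 114 in GFP cells. Of 7 fibroblast and smooth muscle markers 4 lay under it, with sums of 330.0 to 338 in GFP-RhoGDI2 cells and 322 to 331 in GFP cells. The collagen gene COL1A1 was well above it, at 7.48 on both GFP-RhoGDI2 arrays and 7.40 and 7.42 in GFP cells, and the smooth muscle actin gene ACTA2 read 5.84 and 5.74 in GFP-RhoGDI2 cells and 5.54 and 5.67 in GFP cells. Of the 29 matched genes of these 4 lists only 7 were tested, and limma called 0 of them, with 0 at an unadjusted p under 0.05. With no filter it called 0 of the 29, with 2 at an unadjusted p under 0.05. The epithelial and urothelial list was less uniform, with 8 of 13 matched genes under the filter level, the urothelial UPK1B, UPK2 and UPK3A and the epithelial EPCAM and CDH1 among them. Of its 5 tested genes the keratin genes KRT8 and KRT18 fell and PPARG rose. The PPARG probe set passed the filter only through its GFP-RhoGDI2 values (5.85 and 5.77, against 4.46 and 4.61 in GFP cells). The summed level was 8773 to 8948 in GFP-RhoGDI2 cells against 13503 to 13510 in GFP cells. KRT18, by far the brightest gene of the list, makes up most of that sum. It read 12.99 and 13.03 in GFP-RhoGDI2 cells A and B, against 13.60 and 13.61 in GFP cells. The median log2 difference over the 13 matched genes was -0.15. The part of these shifts in the differences below was not tested.

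Among the monocyte recruitment genes VCAM1, CCL2 and CSF1 were called higher in the GFP-RhoGDI2 line, and none was called lower. Of the 16 probe sets 9 reached the filter level, and 3 of them were called higher, beside 4.63% of all 27307 probe sets tested, while 0 were called lower, beside 3.01%. The other 6 tested probe sets were not called. Counted by gene, 3 of the 6 genes with a tested probe set were called higher, beside 4.83% of 12123 genes. The genes were picked with results of these arrays known, and VCAM1 reached the filter level only through its GFP-RhoGDI2 values, so these shares are descriptions. The 7 probe sets under the filter level hold the only ones for CCL7 and CCL20. Over all 16 probe sets, both GFP-RhoGDI2 arrays lay above both GFP arrays for 8, below them for 2 and among them for 6. Of all 54613 probe sets 20.0% lay above and 23.9% below. Probe sets of the same gene count separately here. Several of the 8 are of CSF1 and some lay under the filter level, so they do not stand for 8 genes. The median log2 difference was 0.21 over the 16 probe sets, against -0.02 over all probe sets.

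**Figure D1:**
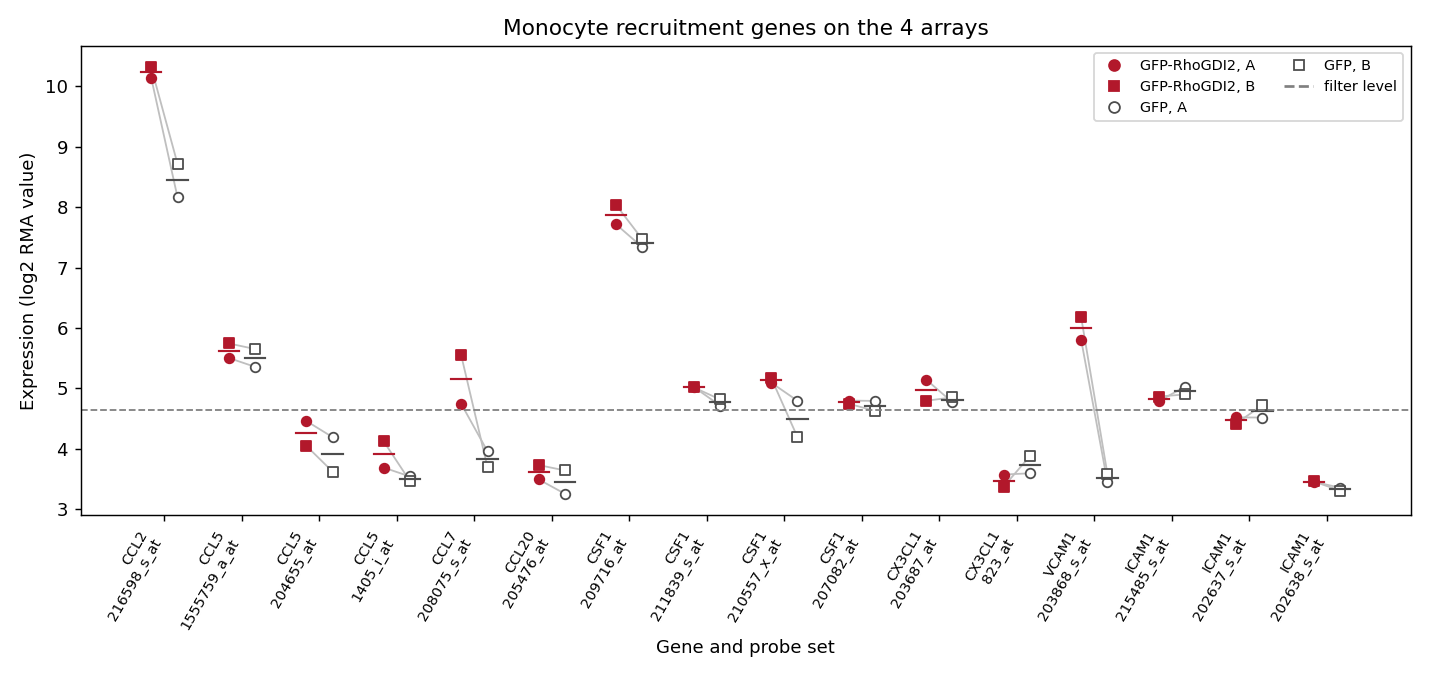
Log2 RMA value of each of the 16 probe sets on the 4 arrays, with GFP-RhoGDI2 filled on the left and GFP open on the right, circles for preparation A, squares for B, grey lines joining a preparation and short bars at group means. CCL2 and VCAM1 stand apart between the lines, VCAM1 crosses the filter level of 4.64, and most other probe sets differ little.

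CCL2, the main chemokine that attracts monocytes, read well above the filter level in both lines and was higher in GFP-RhoGDI2 cells. Its 1 probe set, 216598_s_at, read 10.15 and 10.32 in GFP-RhoGDI2 cells A and B, against 8.17 and 8.72 in GFP cells. The groups did not overlap, and the GFP arrays lay farther from each other than the GFP-RhoGDI2 arrays did. Means were 10.23 ± 0.12 in GFP-RhoGDI2 cells and 8.44 ± 0.39 in GFP cells (SD, n = 2 each). The log2 difference was 1.98 in preparation A and 1.60 in preparation B, with an average of 1.79 (SE 0.12, 95% interval 1.49 to 2.09, limma adjusted p = 0.00192). This is 3.46-fold, and it ranked 93 from the top among the 27307 tested probe sets. In bulk RNA like this, a larger share of CCL2-making cells and more CCL2 RNA per cell cannot be told apart. The identifier ends in _s_at, the class of probe sets that can match several transcripts.

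CCL7, which encodes another chemokine for monocytes and lies next to CCL2 on chromosome 17, differed in the same direction at readings near the filter level. Probe set 208075_s_at read 4.75 and 5.55 in GFP-RhoGDI2 cells A and B, against 3.96 and 3.69 in GFP cells. All GFP-RhoGDI2 values lay above all GFP values, but only those exceeded the filter level. Its mean of 4.49 over the 4 arrays kept it out of the test. The log2 difference was 0.79 in preparation A and 1.86 in preparation B, so the preparations differed in its size, and the average was 1.32. When limma was run with no filter, which called 1.78% of 54613 probe sets higher, CCL7 passed (SE 0.23, adjusted p = 0.0325). With values under the filter level raised to it, the log2 difference was 0.51, or 1.43-fold.

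Apart from CCL7, the genes around CCL2 in the RefSeq gene order read too low to show how far along the chromosome the difference reached. On one side ASIC2, SPACA3, TMEM98 and MYO1D had log2 differences of -0.20, -0.02, -0.40 and 0.06. On the other side, past CCL7, the chemokine genes CCL11, CCL8 and CCL1 had 0.24, 0.24 and 0.38. All 7 lay under the filter level and were not tested, so these are values at low readings, and H2BN1 and CCL13 were not matched. Around VCAM1, on chromosome 1, the 7 tested neighbours ran from -0.39 for S1PR1, which encodes a receptor for sphingosine 1-phosphate, through DPH5 (-0.24), CDC14A (-0.22), SLC30A7 (-0.19) and DBT (-0.18), to values nearer 0 for EXTL2 (-0.08) and RTCA (0.11). None of these was called. LRRC39 and OLFM3 lay under the filter level. These neighbours were looked up after the values of CCL2, CCL7 and VCAM1 had been seen.

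**Figure D2:**
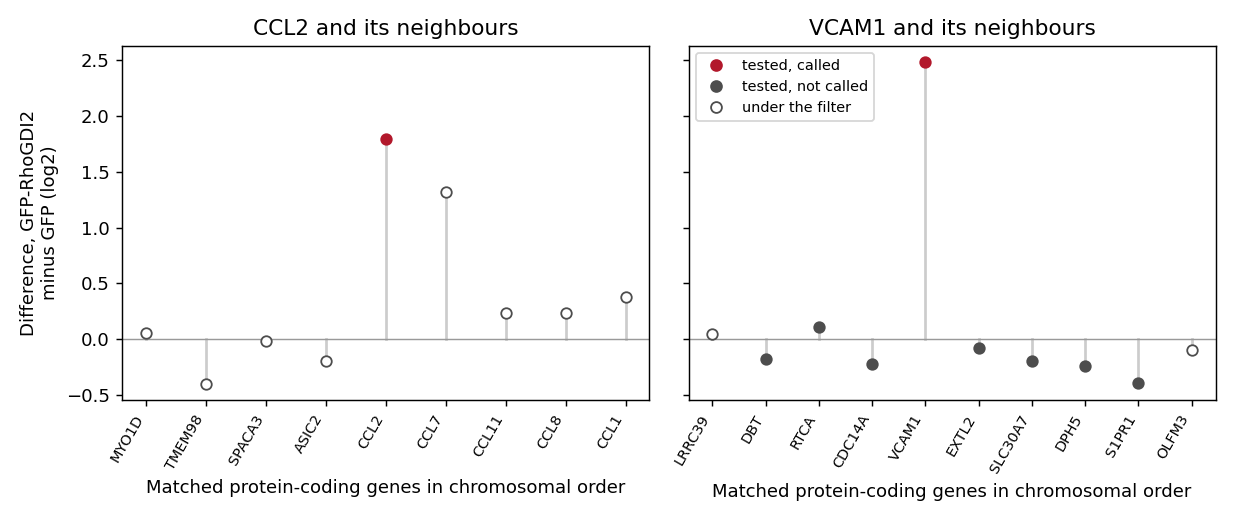
Log2 difference, GFP-RhoGDI2 minus GFP, of CCL2 (left) and VCAM1 (right) and the matched genes among the 5 protein-coding genes on either side, in chromosomal order, with open points under the filter level. CCL2 (1.79), CCL7 (1.32) and VCAM1 (2.48) stand out, and the other neighbours lie between -0.40 and 0.38.

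CCL5 and CCL20 showed no called difference. For CCL5, the highest of 3 probe sets, 1555759_a_at, read 5.50 and 5.74 in GFP-RhoGDI2 cells A and B, against 5.36 and 5.65 in GFP cells. The groups overlapped, and the log2 difference of 0.12 had a 95% interval of -0.11 to 0.35 (limma adjusted p = 0.459). Its other probe sets, 204655_at and 1405_i_at, lay under the filter level, with log2 differences of 0.35 and 0.40; neither passed limma with no filter (adjusted p = 0.186 and 0.230). For CCL20, 205476_at read 3.49 and 3.73 in GFP-RhoGDI2 cells, against 3.25 and 3.64 in GFP cells, all under the filter level. Its log2 difference was 0.16, with a 95% interval of -0.10 to 0.43 in the fit with no filter, so neither a small rise nor a small fall can be told from none here.

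CSF1, the macrophage growth factor gene, was higher in GFP-RhoGDI2 cells by a small margin, with 1 of its 4 probe sets called and a call that turned with the settings. Probe set 209716_at read 7.72 and 8.04 in GFP-RhoGDI2 cells A and B, against 7.34 and 7.47 in GFP cells, with no overlap. The log2 difference was 0.38 in preparation A and 0.57 in preparation B, with an average of 0.47 (SE 0.10, 95% interval 0.23 to 0.72, limma adjusted p = 0.0488), or 1.39-fold. Among its other probe sets, 210557_x_at differed by 0.64 (limma adjusted p = 0.0803), with the lowest reading, 4.19, on the GFP B array. The GFP mean of that probe set, 4.49, lay under the filter level. The last ones, 211839_s_at and 207082_at, differed by 0.25 (adjusted p = 0.161) and 0.06 (adjusted p = 0.719). Which CSF1 transcripts each probe set reads was not analysed here. Without the replicate block the adjusted p of CSF1 was 0.108, and with each array left out in turn it lay between 0.104 and 0.373, so none of these fits called it. In some settings that called more over the whole array than the fit as reported, CSF1 was called too. These were the mean of its 4 probe sets (log2 difference 0.36, limma adjusted p = 0.0374), median centring (0.0222) and an intensity trend (0.00283). CCL2 and VCAM1 passed in each of those fits, with an adjusted p of at most 0.0276 for CCL2 and 0.00171 for VCAM1. Leaving out an array also drops the block and leaves one line with a lone array, assumed to vary like the other line, so these are weak checks of stability.

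**Figure D3:**
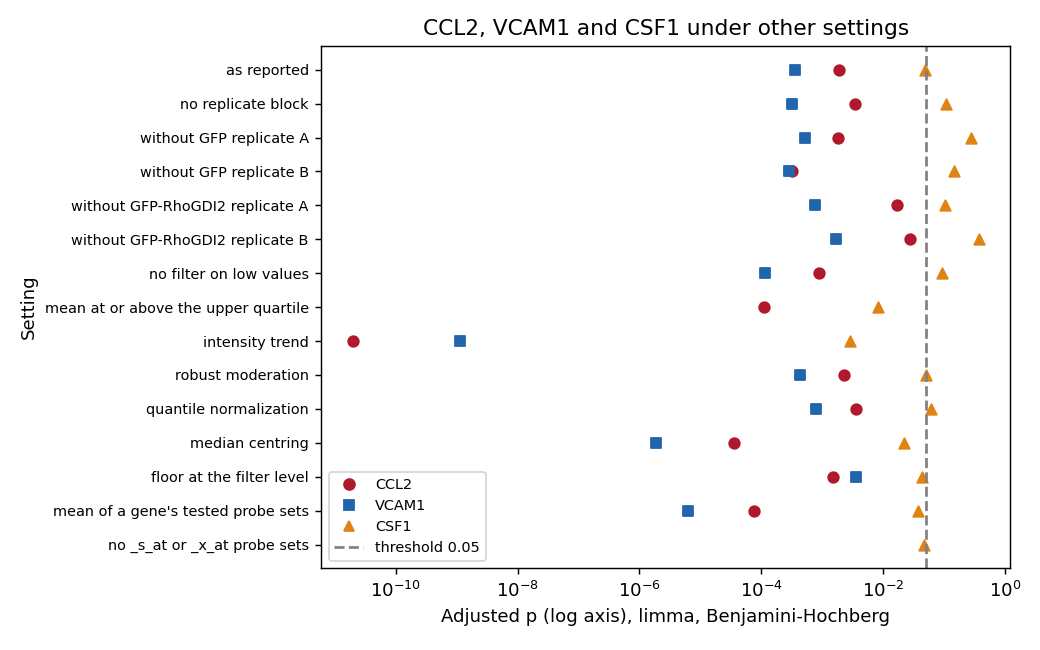
Adjusted p of CCL2, VCAM1 and CSF1 (limma, log axis) as reported and under other settings, with the threshold of 0.05 dashed. CSF1 lies on either side of the threshold, from 0.00283 to 0.373, while CCL2 and VCAM1 lie under it wherever they were tested; CCL2 and VCAM1 have no point without the _s_at and _x_at classes, and VCAM1 none above the upper quartile.

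The adhesion genes parted from each other. VCAM1, to which alpha-4 integrins on monocytes and lymphocytes bind, had the largest difference of the 8 genes in the values as deposited, though not with low values raised to the filter level. Probe set 203868_s_at read 5.81 and 6.18 in GFP-RhoGDI2 cells A and B, against 3.44 and 3.58 in GFP cells. The groups lay far apart, and both GFP values were under the filter level. Means were 5.99 ± 0.26 in GFP-RhoGDI2 cells and 3.51 ± 0.09 in GFP cells (SD, n = 2 each). The log2 difference was 2.36 in preparation A and 2.60 in preparation B, with an average of 2.48 (SE 0.11, 95% interval 2.22 to 2.74, limma adjusted p = 3.55e-04), or 5.59-fold as read. Because the GFP level is not shown to be above background, the size is uncertain. With values under the filter level raised to it, the log2 difference was 1.36, or 2.56-fold. That fit called VCAM1 too (limma adjusted p = 0.00353). The floor gives both its GFP arrays the same value, so this is no check of the call. At that floor the difference of VCAM1 is smaller than that of CCL2, which stays at 1.79, so the order of these genes by size is not settled.

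ICAM1, the ligand of the beta-2 integrins of leukocytes and often induced along with VCAM1, was not called. Its highest probe set, 215485_s_at, read 4.79 and 4.86 in GFP-RhoGDI2 cells A and B, against 5.03 and 4.90 in GFP cells. The GFP-RhoGDI2 values lay below the GFP values by little, with a log2 difference of -0.14 (95% interval -0.39 to 0.11, limma adjusted p = 0.437). Its other probe sets, 202637_s_at and 202638_s_at, were under the filter level at -0.15 and 0.12. The upper end of 0.11 holds for 215485_s_at in that fit, at readings near the filter level. With no filter the upper ends were 0.13 for 215485_s_at, 0.14 for 202637_s_at and 0.38 for 202638_s_at. A larger rise of ICAM1 RNA is therefore not excluded.

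CX3CL1 gave readings in either direction. Probe set 203687_at read 5.15 and 4.80 in GFP-RhoGDI2 cells A and B, against 4.77 and 4.85 in GFP cells. Only preparation A had a higher value in GFP-RhoGDI2 cells, by 0.38, while preparation B differed by -0.06, and the average of 0.16 was not called (limma adjusted p = 0.476). The other probe set, 823_at, lay under the filter level and read 3.57 and 3.37 in GFP-RhoGDI2 cells against 3.59 and 3.88 in GFP cells, a log2 difference of -0.26.

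**Figure D4:**
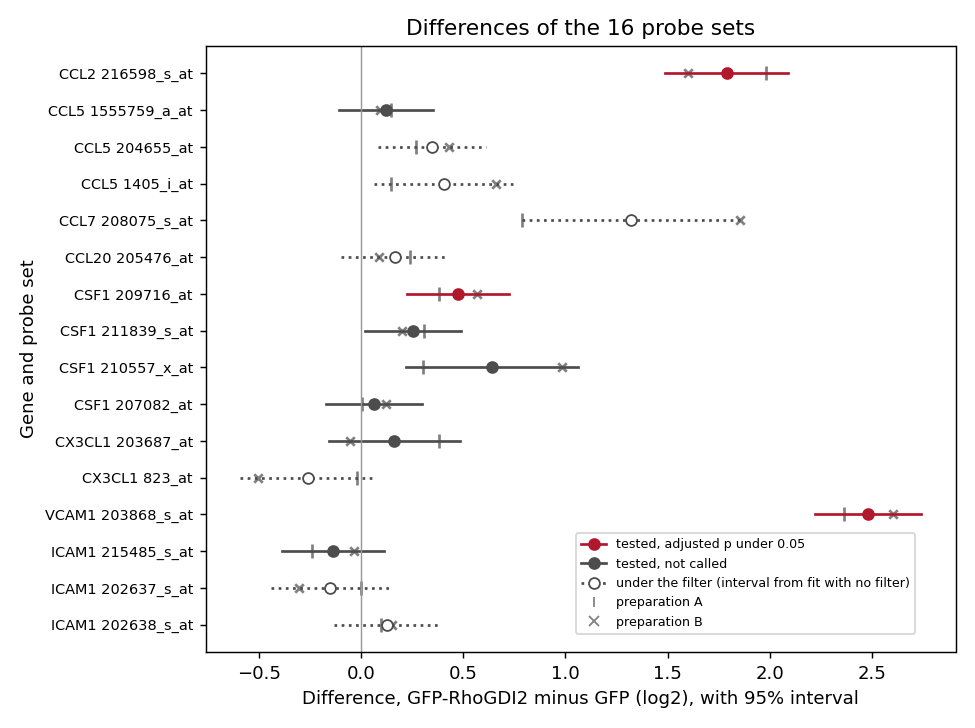
Log2 difference of each probe set, GFP-RhoGDI2 minus GFP, with its 95% interval and the differences within preparations A and B. VCAM1 (2.48) and CCL2 (1.79) lie far right of 0, CCL7 (1.32) is open because it was not tested, and those of CCL5, CCL20, CX3CL1 and ICAM1 lie between -0.26 and 0.40.

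The start regions of VCAM1, CCL7 and ICAM1 are shown because the first of these genes was called, the next passed with no filter and the last was not called. RefSeq promoters were matched for 4 of the 8 genes, VCAM1, CCL7, ICAM1 and CCL20. The 250 bases before the annotated start are given on the plus strand of GRCh38.p14, at chr1:100719492-100719741, chr17:34269971-34270220 and chr19:10270870-10271119. Capitals mark matches on either strand to GGNNNTTCC, a pattern like those bound by NF-kappaB, or to TGANTCA, one like those bound by AP-1; no matches of one pattern overlap those of the other here.
VCAM1: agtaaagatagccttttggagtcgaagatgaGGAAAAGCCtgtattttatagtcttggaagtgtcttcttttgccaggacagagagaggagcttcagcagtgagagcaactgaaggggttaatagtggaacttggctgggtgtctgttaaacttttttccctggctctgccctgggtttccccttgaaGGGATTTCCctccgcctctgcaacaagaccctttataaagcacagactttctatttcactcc
CCL7: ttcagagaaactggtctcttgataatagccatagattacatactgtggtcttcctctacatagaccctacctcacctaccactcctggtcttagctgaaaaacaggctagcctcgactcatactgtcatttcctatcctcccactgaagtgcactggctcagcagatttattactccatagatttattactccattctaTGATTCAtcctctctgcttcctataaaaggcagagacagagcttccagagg
ICAM1: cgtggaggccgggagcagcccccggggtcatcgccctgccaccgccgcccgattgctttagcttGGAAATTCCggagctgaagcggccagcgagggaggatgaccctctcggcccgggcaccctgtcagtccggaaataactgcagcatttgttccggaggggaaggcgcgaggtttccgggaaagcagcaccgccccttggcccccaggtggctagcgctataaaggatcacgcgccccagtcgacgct
VCAM1 has 2 matches to the first pattern, one of them from base 62 to base 54 before the start, and ICAM1 has 1, from base 186 to base 178, where both strands match the pattern. CCL7 has none of the first pattern and 1 of the second, from base 51 to base 45, and CCL20 has 1 of the first, from base 79 to base 71. Of 35116 promoters cut to the same length, 17.1% hold the first pattern and 6.57% the second. The called VCAM1, the uncalled ICAM1 and the untested CCL20 all hold the first pattern, and these letters alone do not show that a factor binds.

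Most other genes of monocyte recruitment were not called. Of 78 genes in 5 lists, 69 were matched and 39 tested, and 3 of these rose and 0 fell, beside 4.83% of all tested genes called higher and 3.35% lower. Of the 36 not called, 12 had an unadjusted p under 0.05, beside 27.1% of all 12123 tested genes, called ones included. Among other monocyte-attracting ligands and growth factors, 1 of 4 tested genes rose, with a median log2 difference of -0.09, beside -0.01 over all tested probe sets. That gene was VEGFA, the endothelial growth factor that also attracts monocytes, at 10.06 and 9.89 in GFP-RhoGDI2 cells A and B, against 9.38 and 9.13 in GFP cells. Its log2 difference was 0.72 (limma adjusted p = 0.0144), and its 4 probe sets, at 0.51 to 0.72, were all called. VEGFA was no longer called when the GFP B array was left out (adjusted p = 0.0813), without GFP-RhoGDI2 A (0.134) and without GFP-RhoGDI2 B (0.0883), all fitted without the block.

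Among integrins and other leukocyte adhesion molecules, 2 of 11 tested genes rose and 0 fell. Of all tested genes 4.83% were called higher and 3.35% lower. The median log2 difference over the 11 was 0.14. ITGA4, the alpha chain of the integrin that binds VCAM1, read 6.29 and 6.44 in GFP-RhoGDI2 cells A and B, against 5.37 and 5.62 in GFP cells. The groups did not overlap, and the log2 difference was 0.87 (limma adjusted p = 0.00846). Its second tested probe set rose by 0.77 (adjusted p = 0.0137), and those under the filter level differed by 1.21 and 1.18. Without the GFP-RhoGDI2 A array or the GFP-RhoGDI2 B array, and without the block, the adjusted p of ITGA4 was 0.0520 and 0.0927. CD99, a surface protein used when leukocytes cross between endothelial cells, read 10.44 on both GFP-RhoGDI2 arrays, against 9.60 and 9.55 in GFP cells A and B, a log2 difference of 0.87 (adjusted p = 0.00796). ITGB1, the beta chain that pairs with ITGA4, differed by 0.14 (adjusted p = 0.384), and the selectin genes SELE and SELP lay under the filter level.

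The receptors for these ligands were nearly all low. Of 8 matched receptor genes 7 lay under the filter level, CCR2, CX3CR1 and CSF1R among them. ACKR2, a receptor that takes up CC chemokines without signalling as they do, was the exception. It read 5.16 and 4.88 in GFP-RhoGDI2 cells against 4.35 and 4.64 in GFP cells, with a GFP mean of 4.50 under the filter level. The log2 difference of 0.52 was not called (limma adjusted p = 0.0978, unadjusted p = 0.0149). Its other probe sets, under the filter level, differed by -0.0022 and -0.24. Among sheddases and linkers to actin, limma called 0 of 5 genes, beside 4.83% of all tested genes higher and 3.35% lower. Of the 5, 2 had an unadjusted p under 0.05, beside 27.1% of all tested genes. ADAM17, which cleaves CX3CL1, VCAM1 and ICAM1 from the cell surface, differed by 0.42 (adjusted p = 0.0544), while another of its 3 probe sets, at 0.45, was just past the threshold (adjusted p = 0.0482).

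Genes known to induce chemokines and adhesion molecules, or to act as their transcription factors, were called by limma in 0 of 18 tested cases. Over all 12123 tested genes 4.83% were called higher and 3.35% lower. Of the 18, 8 had an unadjusted p under 0.05, beside 27.1% of all tested genes. The median log2 difference over the 18 was -0.12. The largest difference among the 18 was -0.44 for REL, a subunit of NF-kappaB (limma adjusted p = 0.0852). Of further NF-kappaB genes, NFKB1 differed by -0.39 (limma adjusted p = 0.0711), RELB by -0.29 (0.123), NFKB2 by 0.04 (0.835) and RELA by 0.13 (0.423). TNFAIP3, an inhibitor that NF-kappaB itself induces, differed by -0.27 (0.141), and NFKBIA by -0.24 (0.164). TNF, IL6 and IFNG lay under the filter level, at log2 differences of 0.01, 0.01 and -0.02. One gene under the filter level stood apart and is named after its values were seen. IL1R1, the signalling receptor for interleukin-1, read 4.82 and 6.21 in GFP-RhoGDI2 cells A and B at 202948_at, against 3.23 and 3.36 in GFP cells. Its log2 difference was 1.58 in preparation A and 2.86 in preparation B, with an average of 2.22, and it passed limma with no filter (adjusted p = 0.00753). With low values raised to the filter level the difference was 0.88, and its other probe set, also under the filter level, differed by 0.42 (adjusted p = 0.147 with no filter). The genes of its ligands, IL1A and IL1B, differed by -0.16 and 0.25 (adjusted p = 0.316 and 0.165).

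**Figure D5:**
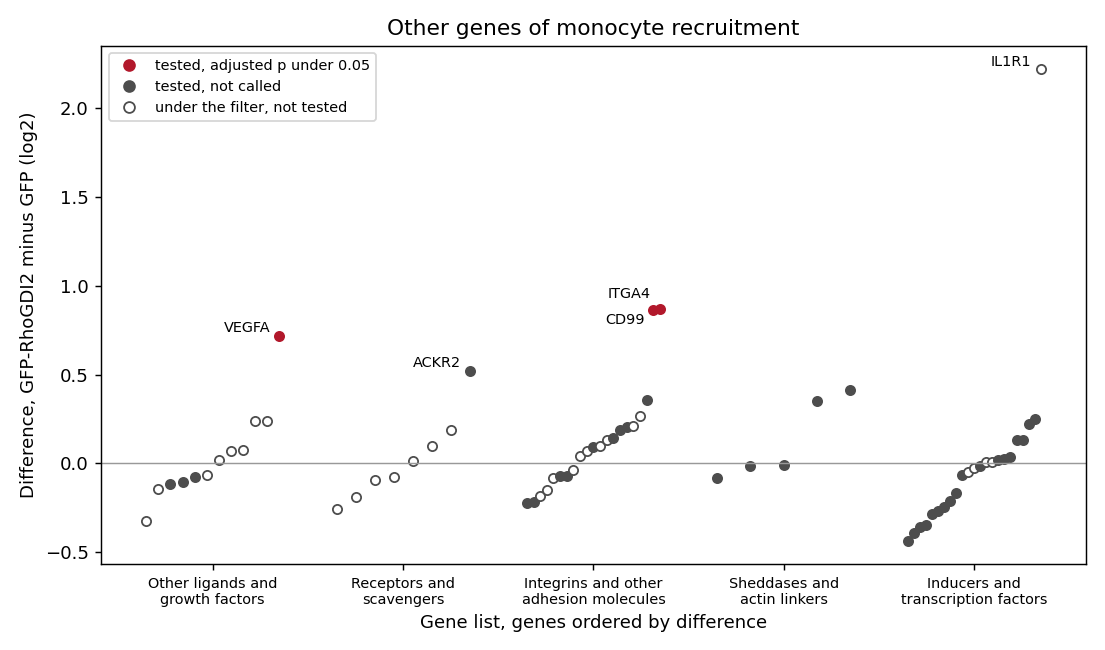
Log2 difference, GFP-RhoGDI2 minus GFP, of the matched genes of the 5 lists, ordered within each list, with called genes in red and genes under the filter level open. VEGFA (0.72), ITGA4 (0.87) and CD99 (0.87) were called, and IL1R1 (2.22) lies highest but was not tested.

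The 5 tested genes whose pattern over the 4 arrays was most like that of CCL2, by the distance between centred log2 values, were PGM5, EDN1, EFNA5, TMEM132D-AS1 and MLPH. Their distances ran from 0.165 to 0.313, and Pearson's r with CCL2 over the 4 arrays ran from 0.988 to 0.999, a description over 4 points that share the step between the lines. EDN1, which encodes the vasoactive peptide endothelin-1, read 8.45 and 8.51 in GFP-RhoGDI2 cells A and B, against 6.46 and 6.76 in GFP cells. PGM5 read 5.90 and 6.23 in GFP-RhoGDI2 cells, against 3.92 and 4.41 in GFP cells. It passed the filter only through its GFP-RhoGDI2 values, so the size of its difference is uncertain. VCAM1 stood at place 88 and CSF1 at place 513 of 12122 genes in this order.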

How the data were processed

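Total RNA of 4 cultures was hybridised to the Affymetrix HG-U133 Plus 2.0 array. The authors deposited log2 expression values per probe set, which are RMA values per the submitters' processing notes. The software and its version were not given in the sources used here. Arrays carry no read depth, and 2 arrays a group limit the precision. Of 54675 probe sets, 62 controls were left out; the platform annotation named 1 gene for 41091, several for 1801 and did not list 11721. Where a gene has several probe sets, the one whose mean over the arrays is highest stands for it.

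Differences were fitted with limma 3.58.1 under R 4.3.3 (lmFit, eBayes) with preparation as a block, since the labels state the pairing, and Benjamini-Hochberg adjustment over 27307 probe sets. As a check of the pairing, the step between preparations in GFP-RhoGDI2 cells was set against that in GFP cells (r = 0.264 across tested probe sets). The fit had 1 residual degree of freedom, to which moderation added 4.71. On simulated data with known changes it recovered their sizes, but the share of false calls was above the nominal level, which bears most on calls near the threshold, such as that of CSF1. P-values rest only on the spread between these preparations, and moderation takes most of that spread from all fitted probe sets together. Where the preparations of a probe set differ much, as for CCL7 and IL1R1, this makes the SE smaller than its own values would. Intervals are at 95%.

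The genes and lists were chosen with earlier results of these data known. Named genes are the 8 members, every called gene of each list or otherwise its largest tested difference, and the 5 genes most like CCL2. Outside that rule, IL1R1, IL1A, IL1B, ITGB1, the NF-kappaB genes other than REL, ADAM17's further probe set and the neighbours were named after values were seen. So were list members given under the filter level. Other settings tried were no block, leaving out each array, single preparations, other filters, moderation and normalization, a floor, probe set means, probe set classes and thresholds. Promoter sequences are RefSeq's on GRCh38.p14.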

Additional observations from a re-analysis of the deposited data

How the results depend on the processing

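CCL2 and VCAM1 stayed higher and called in every alternative that tested them. VCAM1 entered the filtered fits only through its GFP-RhoGDI2 values, and the floor made both its GFP values the same. It was not tested above the upper quartile. The log2 difference of CCL2 was between 1.51 and 2.07 with each array left out, and that of VCAM1 between 2.30 and 2.67. Of the 8 genes, 3 were called as reported, 2 without the replicate block, 2 with any array left out (which drops the block too), and 1 without probe sets of the _s_at and _x_at classes, where CCL2 and VCAM1 have none left. With no filter 3 were called, CCL7 in place of CSF1 (adjusted p = 0.0927). CSF1 was also lost with robust moderation (0.0504) and quantile normalization (0.0611). Differences that were not called changed sign for CCL5 (-0.027 to 0.27 with an array left out) and for CX3CL1 (-0.014 to 0.34, and -0.056 in preparation B alone). Of 27307 probe sets tested, 1264 were called higher and 821 lower. Of the same number, 821 and 463 were called without the block, 2935 and 2786 with an intensity trend, and 1873 and 1522 with median centring. At a threshold of 0.01 there were 358 and 89, and at 0.10 2287 and 1977. The remaining settings tested other numbers of probe sets, so their counts do not compare directly. With no filter 970 were called higher and 470 lower of 54613. Above the upper quartile there were 1713 and 1722 of 13654, and without the _s_at and _x_at classes 787 and 553 of 16775. Of 18 inducers and transcription factors tested, 5 were called lower with an intensity trend, and 4 with probe set means or at 0.10. Above the upper quartile 4 of 12 were called lower. Of 5 sheddases and linkers tested, 2 were called higher above the upper quartile, with an intensity trend or with probe set means. Each of these settings also called more probe sets or genes over the whole array, in the same direction, than the fit as reported. Probe set means called 1070 genes higher and 961 lower of all 12123 tested, against 585 and 406 as reported. ACKR2 was called with an intensity trend, median centring or probe set means. With 2 arrays a group and no detection calls, low probe sets limit what can be said of CCL7, CCL20, CX3CL1 and ICAM1.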
